A study of Mus musculus with 96 samples.

Results

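The integrin and CD surface antigen genes are the genes on the array whose symbol begins with Itga or Itgb, or is Cd with a number. They were chosen by symbol, with Cd14, Cd40, Cd68, Cd74, Cd83 and Cd274 left out by name, and earlier results of these data were known. The pattern took 87 of 10698 named genes, measured by 131 probes, and 82 of them could be tested. It takes in 12 integrin alpha subunits and 7 beta subunits, and 4 genes that only carry an integrin's name as binding or similar proteins. Among the CD genes are 7 tetraspanins, 18 costimulatory and immunoglobulin-family genes, 8 scavenger and lectin receptors, and 9 adhesion and GPI-anchored antigens. A further 11 encode lymphocyte antigen receptors and coreceptors, 2 present lipid antigens and 7 stand in no list. Cd2ap and Cd2bp2 match the pattern but encode proteins inside the cell. Itgam, the alpha chain best known from macrophages, was not analysed here.

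All RNA came from RAW 264.7, a mouse macrophage-like tumour line kept in culture, so it is 1 line and not a primary macrophage. Each array set RNA of treated cells against RNA of untreated cells of the same time in the other dye. Joint treatments were LPS with IFNG and LPS with 2MA, and the single treatments were IFNG, 2MA and LPS. LPS, the lipopolysaccharide of Gram-negative bacteria, was given at 100 ng, with no volume stated, together with 100 pM LPS-binding protein. IFNG, interferon gamma, was given at 5 nM. 2MA, 2-methyl-thio-ATP, mimics ATP at purinergic receptors of the P2 class. Its dose was 500 uM by the channel labels, and 1 description has 500 nM. Joint treatments used the same doses. Cells were taken at 1, 2 and 4 h, and with LPS alone also at 30 min, which gives 16 groups of 3 sets. Every set has 1 array per dye orientation, and its value is the mean of both as log2 of treated over untreated. The labels do not say whether sets are separate cultures, so the spread behind the p-values is that between sets and may be technical. Nor do they say whether treatments of 1 set shared untreated RNA.

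The 96 arrays held values for 13508 to 15004 of 16281 probes, and the number of arrays limits the precision. After turning, Tnf and Il1b lay above 0 on 24 of 24 LPS arrays, and Irf1 and Socs1 on 18 of 18 IFNG arrays. Of the 10 macrophage markers, Adgre1, Csf1r, Cd68, Fcgr1, Cd14, Ptprc and Tyrobp had values on all 96 arrays. Lyz2 had values on 3 arrays and Mpeg1 on 15. T cell, B cell and fibroblast markers had values as well, but a ratio says nothing of the level of a gene. Of those markers, only Cd3e had a called response, at 1 time. The median standard error was 0.113 for a response and 0.159 for a difference between responses, on the log2 scale.

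Integrins are pairs of an alpha and a beta chain that span the membrane and bind matrix proteins or molecules on other cells. Macrophages use them to spread, migrate, take up particles and hold on to lymphocytes, and talin and kindlin switch them on from inside. CD numbers are names for surface molecules that antibodies define, and the genes share no fold or pathway. In macrophages several of them give or restrain signals to T cells, and tetraspanins arrange them in the membrane.

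A response was called where limma's adjusted p was under 0.05, with Benjamini-Hochberg adjustment over all 11593 genes and unnamed probes tested. In all, 43 of the 82 genes were called in at least 1 of 16 responses (52.4%, against 49.4% of all genes tested), a share near the background. Of these, 26 were called only above untreated cells (31.7%, against 21.3%) and 15 only below (18.3%, against 25.2%). The other 2, Cd180 and Itgb1bp2, were called in both directions. The other 39 were called in none, with means between -0.88 and 0.59. At 4 h, LPS+IFNG had 30 members called (36.6%, against 34.0% of all genes tested) and LPS+2MA had 29 (35.4%, against 33.4%). IFNG had 13 (15.9%, against 12.3%), 2MA had 3 (3.66%, against 2.00%) and LPS had 24 (29.3%, against 28.6%). These shares lie near those of all genes. By direction, LPS at 4 h had 18 members up (22.0%, against 12.7%) and 6 down (7.32%, against 15.9%). Both joint treatments leaned the same way. LPS+IFNG had 20 up (24.4%, against 15.2%) and 10 down (12.2%, against 18.8%), and LPS+2MA had 22 up (26.8%, against 14.9%) and 7 down (8.54%, against 18.5%). The medians over members were 0.09, 0.06 and 0.08 for LPS+IFNG, LPS+2MA and LPS, close to the -0.01, -0.01 and 0.00 of all genes. Without set 1 the LPS count at 4 h fell to 14 and the IFNG count to 8, and the 2MA count was 0 without set 1 and 1 without set 3. The LPS+IFNG count at 4 h fell to 21 and the LPS+2MA count to 23 without set 1.

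Earlier times held fewer calls. At 2 h, LPS+IFNG had 11 (13.4%, against 20.8%), LPS+2MA had 12 (14.6%, against 17.8%) and LPS had 10 (12.2%, against 16%). At 1 h the counts were 5 for LPS+IFNG (6.10%, against 7.62%), 4 for LPS+2MA (4.88%, against 5.45%) and 5 for LPS (6.10%, against 5.61%). LPS at 30 min called 1 gene, Cd22 (1.22%, against 1.04%). IFNG called 0 members at 1 h with limma (against 1.13%, 2 members at an unadjusted p under 0.05) and 1 at 2 h, Cd47 (against 3.43%). 2MA called 0 at 1 h with limma (against 1.41%, 8 members at an unadjusted p under 0.05) and 1 at 2 h, Cd9 (against 1.33%). Leaving out 1 set moved several of these. LPS at 1 h fell to 3 without set 1 or set 3, and IFNG at 2 h to 0 without set 1 or set 2. 2MA at 1 h reached 2 without set 2 and 1 without set 3, and at 2 h it had 0 without set 1 or set 3 and 2 without set 2. LPS+IFNG at 1 h fell to 3 without set 2 and at 2 h reached 19 without it, and LPS+2MA at 2 h fell to 7 without set 1.

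**Figure D1:**
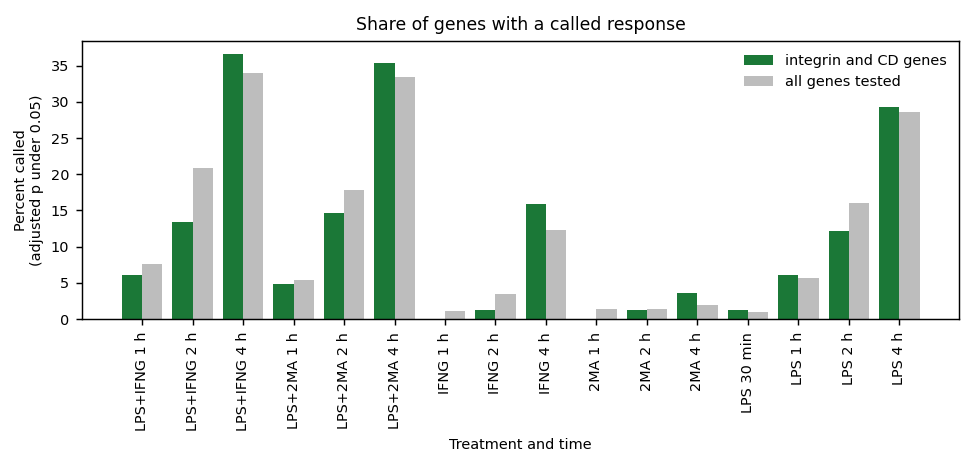
Percent of genes with a called response (y axis) in each treatment and time (x axis), with green bars for the 82 integrin and CD genes tested and grey bars for all 11593 genes and unnamed probes. The green and grey bars lie close together in most groups, for example 36.6% and 34.0% for LPS+IFNG at 4 h.

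**Figure D2:**
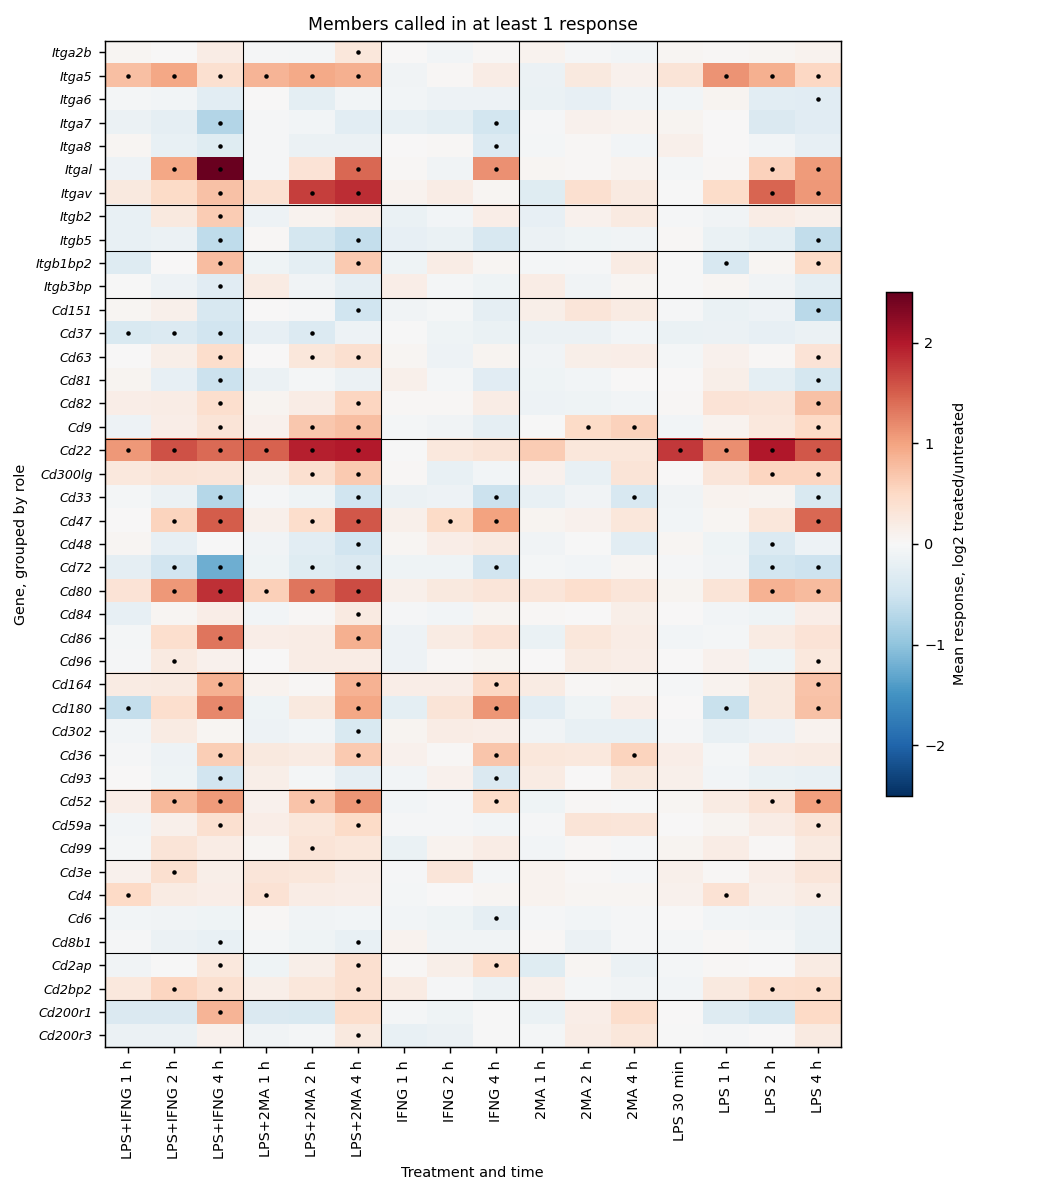
Mean log2 response over 3 sets of the 43 members called in at least 1 response (rows, grouped by role between black lines) in each treatment and time (columns), red above and blue below untreated cells, with a dot where the response was called. Most dots stand in the columns of LPS+IFNG, LPS+2MA and LPS at 4 h, and the darkest cell is Itgal after LPS+IFNG at 4 h, with 2.47.

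For 7 genes the joint LPS+IFNG response passed the test against LPS or against the sum of both single responses: Itgal, Itgav, Itgb2, Cd80, Cd86, Cd72 and Cd47. Promoter windows of Itgav, Cd80, Cd72 and Cd47 are shown so that they can be read beside these responses. They come from RefSeq on GRCm38.p6, run 5′ to 3′ on the gene's strand, and cover 250 bases before to 50 after the listed start, the first one where 2 are listed. Capitals mark matches to 1 of 3 motifs searched on both strands. They were GAGGAA, the core bound by PU.1, a transcription factor of myeloid cells, GAAANNGAA, a core of the interferon-stimulated response element, and GGGNNTTTC, a core of the kB site. The Itgav window is chr2:83724147-83724446 on the plus strand, and the Cd80 window chr16:38458683-38458982 on the plus strand. The Cd72 window is chr4:43454577-43454876 on the minus strand, and the Cd47 window chr16:49855404-49855703 on the plus strand.
Itgav: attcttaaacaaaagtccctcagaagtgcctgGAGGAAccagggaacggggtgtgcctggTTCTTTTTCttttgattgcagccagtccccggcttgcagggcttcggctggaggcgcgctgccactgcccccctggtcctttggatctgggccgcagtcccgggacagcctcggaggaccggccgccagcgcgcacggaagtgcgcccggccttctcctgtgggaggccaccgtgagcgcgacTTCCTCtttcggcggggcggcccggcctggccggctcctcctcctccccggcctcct
Cd80: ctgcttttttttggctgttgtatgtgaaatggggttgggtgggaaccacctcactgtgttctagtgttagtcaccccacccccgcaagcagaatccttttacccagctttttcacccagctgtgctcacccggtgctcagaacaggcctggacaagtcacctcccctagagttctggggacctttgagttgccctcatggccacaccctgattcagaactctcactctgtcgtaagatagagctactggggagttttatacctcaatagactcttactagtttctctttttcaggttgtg
Cd72: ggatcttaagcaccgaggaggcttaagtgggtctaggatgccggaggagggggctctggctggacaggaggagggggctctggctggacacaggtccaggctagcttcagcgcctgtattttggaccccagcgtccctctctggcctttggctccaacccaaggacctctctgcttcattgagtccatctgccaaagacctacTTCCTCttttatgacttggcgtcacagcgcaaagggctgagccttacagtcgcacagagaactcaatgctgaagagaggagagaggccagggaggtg
Cd47: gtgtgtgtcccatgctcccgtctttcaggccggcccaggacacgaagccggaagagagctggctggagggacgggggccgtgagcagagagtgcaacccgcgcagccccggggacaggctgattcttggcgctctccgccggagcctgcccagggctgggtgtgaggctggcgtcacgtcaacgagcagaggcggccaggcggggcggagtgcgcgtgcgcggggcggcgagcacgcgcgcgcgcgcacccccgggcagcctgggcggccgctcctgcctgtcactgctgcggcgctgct
Itgav has 1 match to GAGGAA on the gene's strand, beginning 218 bases before its listed start. On the other strand it has 1 match to GAGGAA, beginning 7 bases before, and 1 to GAAANNGAA, beginning 190 bases before. Cd72 has 1 match to GAGGAA, also on the other strand, beginning 47 bases before its start. Cd80 and Cd47 have 0 matches in these windows. Of all 32851 windows listed, 28.3% hold GAGGAA, 8.56% GAAANNGAA and 4.36% GGGNNTTTC. Of 61 members with a window, 27, 9 and 1 hold these motifs in the first window listed. Matches of different motifs do not overlap in the windows shown.

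Among the alpha subunits, 7 of 12 were called in at least 1 response (58.3%), 4 up (33.3%) and 3 down (25.0%). Of all genes tested, 49.4% were called in at least 1 response, 24.2% up in at least 1 and 28.1% down in at least 1. The 4 that rose were Itgal, Itgav, Itga5 and Itga2b, the last of them in 1 group only. Itga7, Itga8 and Itga6 fell.

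Itgal encodes the alpha chain of the leukocyte integrin that binds ICAM molecules, and its partner chain is Itgb2. At 4 h, LPS+IFNG gave 2.36, 2.68 and 2.38 in sets 1, 2 and 3, IFNG alone gave 1.06, 1.54 and 0.82, and LPS alone gave 0.98, 1.51 and 0.70. Every set of the joint treatment lay above every set of either single ligand. The mean was 2.47 ± 0.18 (SD, n = 3) with LPS+IFNG, 1.14 ± 0.37 with IFNG and 1.06 ± 0.41 with LPS, and all 3 responses were called. LPS+IFNG exceeded LPS by 1.41 (SE 0.24, 95% interval 0.92 to 1.90, limma adjusted p = 9.92e-05), higher in 3 of 3 sets. Without set 1 the difference was 1.42 with an adjusted p of 0.052, within a range of 1.78e-08 to 0.052 over 11 alternatives. LPS+2MA at 4 h gave 1.48, 1.92 and 0.93, mean 1.44 ± 0.50, which was called against untreated cells and overlapped the LPS sets. Before 4 h, IFNG left Itgal at 0.03 at 1 h and -0.08 at 2 h, neither called. LPS means were -0.05, 0.02, 0.57 and 1.06 at 30 min, 1, 2 and 4 h. The 2 probes of the gene gave 2.54 and 2.40 for LPS+IFNG at 4 h.

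Itgb2, the beta chain shared by the leukocyte integrins, was called in 1 of 16 responses. LPS+IFNG at 4 h gave 0.66, 0.63 and 0.64, IFNG gave 0.15, 0.17 and 0.16, and LPS gave 0.06, 0.06 and 0.26. The joint sets stood clear of both single treatments, with a mean of 0.64 ± 0.02 (SD, n = 3). The difference from LPS was 0.52 (SE 0.14, 95% interval 0.24 to 0.80, limma adjusted p = 0.0173), with the same sign in 3 of 3 sets. It lost its call when any 1 set was left out, with 0.48 without set 1, 0.49 without set 2 and 0.58 without set 3, and adjusted p-values between 0.0515 and 0.397. Itgb2 and Itgal both had their highest means with LPS+IFNG at 4 h.

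Itgav encodes the alpha-v chain, which binds vitronectin and other proteins with an RGD motif and pairs with Itgb3, Itgb5 and others. LPS+IFNG at 2 h gave 0.55, 0.66 and 0.24, IFNG gave -0.02, 0.16 and 0.40, and LPS gave 1.73, 1.78 and 0.84. Every joint set lay below every LPS set. LPS+IFNG was 0.97 lower than LPS, a difference of -0.97 (SE 0.25, 95% interval -1.48 to -0.45, limma adjusted p = 0.0247), and 3 of 3 sets had this sign. The call was lost without set 1 (-0.86, adjusted p = 0.358) and without set 2 (-0.89, adjusted p = 0.19), in a range of 0.000514 to 0.358 over all alternatives. At 4 h the joint mean was 0.73 ± 0.15, against 1.08 ± 0.20 with LPS, and that difference was not called. LPS+2MA gave 1.56, 2.02 and 1.58 at 2 h and 1.51, 2.00 and 2.05 at 4 h. At 4 h its 3 sets lay above the LPS values of 0.92, 1.01 and 1.31, but the difference of 0.77 (95% interval 0.26 to 1.29) had an adjusted p of 0.302. The alpha-v gene was thus high with LPS and with LPS+2MA, and lower with LPS+IFNG at 2 h.

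Itga5 encodes the alpha chain of the fibronectin receptor, which pairs with Itgb1. LPS alone gave 0.39, 0.42 and 0.18 at 30 min, 1.58, 0.86 and 0.95 at 1 h, 1.38, 1.06 and 0.21 at 2 h, and 0.76, 0.48 and 0.33 at 4 h. The LPS mean was highest at 1 h, 1.13 ± 0.39 (SD, n = 3), and the LPS times differed by limma's F test (adjusted p = 0.0164). LPS+IFNG means were 0.75, 0.96 and 0.41 at 1, 2 and 4 h, and LPS+2MA means 0.84, 0.94 and 0.89, all called. The lowest of these, LPS+IFNG at 4 h, lost its call without set 1 (0.37) and without set 2 (0.40). IFNG and 2MA alone left the gene between -0.14 and 0.25, with no call. Itga5 was therefore called at 1, 2 and 4 h in each treatment that held LPS and in none without it. The differences of LPS+IFNG and LPS+2MA from LPS were not called for this gene, and no treatment with LPS was tested against IFNG or 2MA alone.

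The other alpha subunits moved less. Itga7, a laminin-binding chain, fell by 0.74 with LPS+IFNG at 4 h (SD 0.26) and by 0.46 with IFNG (SD 0.19). Itga8 was called below untreated cells in the same groups, with -0.30 ± 0.21 for LPS+IFNG and -0.34 ± 0.06 for IFNG. Itga6, another laminin-binding chain, was called with LPS at 4 h at -0.28 ± 0.22, and Itga2b, the platelet alpha chain, with LPS+2MA at 4 h at 0.28 ± 0.04. Both calls were weak: Itga6 was lost under 9 of 11 alternatives and Itga2b under 4. Itga4, the chain that binds VCAM1, was not called in any response, and its means spanned -0.65 with 2MA at 4 h to 0.59 with IFNG at 2 h. These means average 2 tested probes, which stood up to 1.25 apart, with 2MA at 1 h. Itga2, Itga3, Itgae and Itgax had no call either, and their means lay between -0.33 and 0.41.

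Of the 7 beta subunits, Itgb2 rose and Itgb5 fell, and 5 were not called, so 28.6% were called in at least 1 response, against 49.4% of all genes. Itgb5, a partner of the alpha-v chain, had means of -0.63 ± 0.24 with LPS+IFNG, -0.59 ± 0.21 with LPS+2MA and -0.61 ± 0.41 with LPS at 4 h. All 3 were called (limma adjusted p = 0.00423, 0.0075 and 0.00746), although only 4, 5 and 5 of 6 arrays had this sign. Itgb1, the most widely shared beta chain, reached -0.88 with 2MA at 1 h and 0.42 with LPS+IFNG at 4 h without a call. Its other probe, which was not tested, had 0.14 for 2MA at 1 h. Itgb3, Itgb4, Itgb6 and Itgb7 had means between -0.25 and 0.36.

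**Figure D3:**
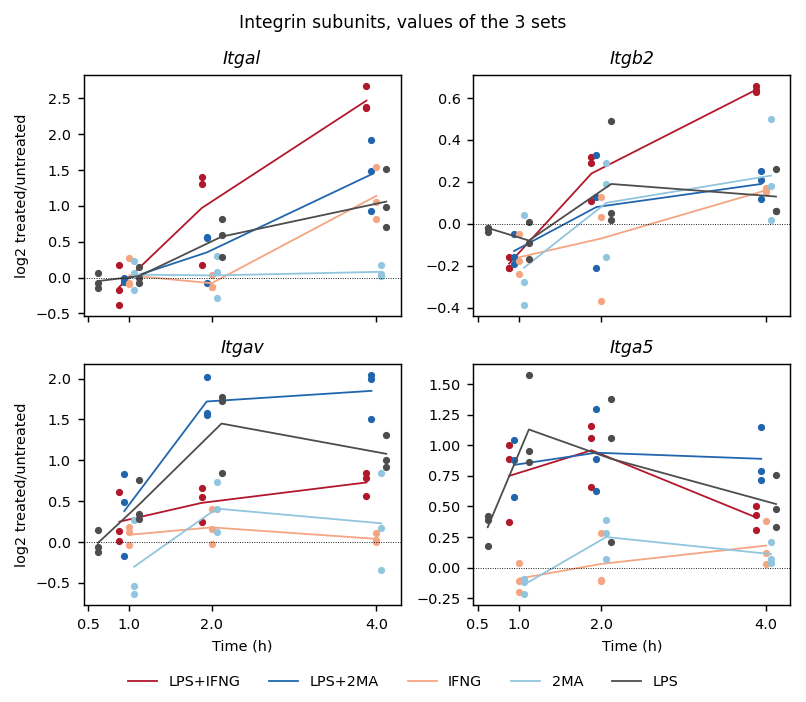
Log2 treated over untreated (y axis) against time in hours (x axis) for Itgal, Itgb2, Itgav and Itga5, with a point for each of the 3 sets, lines through the means and small sideways shifts to part the treatments. LPS+IFNG at 4 h stands above the rest for Itgal and Itgb2, LPS+2MA is highest for Itgav at 2 and 4 h, and Itga5 is high with every treatment that holds LPS.

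Among 4 genes named after integrins, Itgb1bp2 and Itgb3bp were called (50%, against 49.4% of all genes). Itgb1bp2, known as melusin in muscle, was -0.41 ± 0.36 with LPS at 1 h and 0.48 ± 0.02 with LPS at 4 h. It was 0.78 ± 0.32 with LPS+IFNG and 0.66 ± 0.20 with LPS+2MA at 4 h. The 1 h call was lost under 5 of 11 alternatives. With LPS at 4 h, only 4 of 6 arrays had the sign of the mean. Itgb3bp, a centromere protein, was -0.29 ± 0.23 with LPS+IFNG at 4 h.

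Of the genes behind integrin activation and adhesion signalling, 28 of 40 listed were tested. LPS+IFNG at 4 h called 12 up (42.9%, against 15.2% of all genes) and 3 down (10.7%, against 18.8%). LPS+2MA called 8 up (28.6%, against 14.9%) and 4 down (14.3%, against 18.5%). IFNG called 4 up (14.3%, against 6.31%) and 2 down (7.14%, against 5.99%), and 2MA 3 up (10.7%, against 1.42%) and 0 down (against 0.578%). LPS called 7 up (25.0%, against 12.7%) and 4 down (14.3%, against 15.9%). The medians of the list were 0.13 for LPS+IFNG, 0.13 for LPS+2MA, -0.01 for IFNG, 0.09 for 2MA and 0.06 for LPS, where all genes had medians from -0.01 to 0.00. The list was chosen with earlier results of these data known, and these shares describe it without a test. Zyx, the focal adhesion protein zyxin, had the largest mean, 3.24 ± 0.53 with LPS+IFNG at 4 h, 1.69 ± 0.78 with IFNG and 1.11 ± 0.31 with LPS. Its difference between LPS+IFNG and LPS was 2.13 (SE 0.29, limma adjusted p = 2.62e-06). Fgr, a Src-family kinase of myeloid cells, was 1.29 with LPS+IFNG, 2.46 with LPS+2MA, 1.13 with 2MA and 1.90 with LPS at 4 h. Fyb, an adaptor of integrin activation, was 0.84 with LPS+IFNG, 1.34 with LPS+2MA and 1.66 with LPS. Cytip, which holds back cytohesin, was -1.31, -1.08 and -1.32 in those treatments.

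Of the ligands of integrins, 22 of 29 listed genes were tested. At 4 h, LPS+IFNG called 4 up (18.2%, against 15.2% of all genes) and 1 down (4.55%, against 18.8%). LPS+2MA called 5 up (22.7%, against 14.9%) and 2 down (9.09%, against 18.5%). IFNG called 1 up (4.55%, against 6.31%) and 0 down (against 5.99%), and 2MA 1 up (4.55%, against 1.42%) and 0 down (against 0.578%). LPS called 4 up (18.2%, against 12.7%) and 1 down (4.55%, against 15.9%). Tnc, the matrix protein tenascin C, was 1.64 ± 0.56 with LPS+IFNG, 2.63 ± 0.94 with LPS+2MA and 1.09 ± 0.45 with LPS. LPS+2MA exceeded LPS for Tnc by 1.54 (SE 0.33, limma adjusted p = 0.0255). Icam2, a ligand of the Itgal and Itgb2 pair, was -0.69 ± 0.22 with LPS+IFNG, -0.69 ± 0.36 with LPS+2MA and -0.53 ± 0.17 with LPS.

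The costimulatory and immunoglobulin-family list had 10 of 18 genes called in at least 1 response (55.6%, against 49.4% of all genes). Of the 18, 7 were called up (38.9%, against 24.2%) and 3 down (16.7%, against 28.1%). Cd80 and Cd86 encode the B7 ligands that macrophages show to CD28 and CTLA4 on T cells. For Cd80 at 4 h, LPS+IFNG gave 1.33, 1.65 and 2.52, IFNG gave 0.23, 0.63 and 0.06, and LPS gave 0.46, 1.20 and 0.69. The joint sets lay above all sets of both single ligands. The difference from LPS was 1.05 (SE 0.24, 95% interval 0.56 to 1.54, limma adjusted p = 0.00463), with the same sign in 3 of 3 sets. Without set 3 it was 0.66 with an adjusted p of 0.181, the largest of the 11 alternatives, whose smallest was 6.93e-05. LPS+2MA gave 1.19, 1.73 and 2.01, mean 1.64 ± 0.41, and exceeded LPS by 0.86 (SE 0.24, 95% interval 0.37 to 1.35). That difference was not called (adjusted p = 0.136), and with sets paired by number its adjusted p was 0.0251. LPS means were 0.06, 0.32, 0.86 and 0.79 at 30 min, 1, 2 and 4 h, so Cd80 was already called at 2 h.

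Cd86 was called in 2 responses, both joint treatments at 4 h. LPS+IFNG gave 2.02, 0.74 and 1.25, IFNG gave 0.21, 0.03 and 0.77, and LPS gave 0.45, 0.04 and 0.55. The lowest joint set lay above the highest LPS set but just below the highest IFNG set. The joint mean was 1.34 ± 0.65 (SD, n = 3), against 0.35 ± 0.27 with LPS, and the difference was 0.99 (SE 0.26, 95% interval 0.47 to 1.52, limma adjusted p = 0.0151). It was lost without set 1 (0.70, adjusted p = 0.612) and without set 3 (1.14, adjusted p = 0.0746), in a range of 0.000114 to 0.612. LPS+2MA gave 1.28, 0.72 and 0.67, mean 0.89 ± 0.34, and its difference of 0.55 from LPS (95% interval 0.02 to 1.07) had an adjusted p of 0.808.

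Cd72, an inhibitory lectin-like receptor known best from B cells, had the lowest mean of the called members. LPS+IFNG at 4 h gave -1.18, -1.28 and -1.21, IFNG gave -0.55, -0.37 and -0.52, and LPS gave -0.50, -0.50 and -0.56. The joint sets lay below all sets of the single ligands. LPS+IFNG was lower than LPS by a difference of -0.70 (SE 0.11, 95% interval -0.92 to -0.48, limma adjusted p = 1.96e-05), in 3 of 3 sets. This call held under all 11 alternatives, with adjusted p-values from 1.34e-08 to 0.024. The joint response minus the sum of the single ones was -0.22 and was not called. LPS+2MA gave -0.40, -0.37 and -0.35 at 4 h, a mean of -0.37 ± 0.03. Both probes of Cd72 ran together, with -1.12 and -1.32 for LPS+IFNG at 4 h.

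Cd47 encodes the ligand of SIRP alpha that holds back phagocytosis, and it also binds thrombospondin. At 4 h, LPS+IFNG gave 1.70, 1.63 and 1.20, IFNG gave 1.04, 1.23 and 0.76, and LPS gave 1.62, 1.66 and 1.04. Joint and LPS sets overlapped, and IFNG alone already gave a mean of 1.01 ± 0.24. The joint mean of 1.51 ± 0.27 (SD, n = 3) was therefore below the sum of the single means, by a deviation of -0.94 (SE 0.21, 95% interval -1.37 to -0.51, limma adjusted p = 0.00506). Of 82 members, Cd47 alone was called in this test, and 3 of 3 sets had this sign. The call was lost without set 1 (-0.93, adjusted p = 0.27) and without set 2 (-0.78, adjusted p = 0.232), in a range of 3.2e-07 to 0.27. LPS+2MA at 4 h gave 1.71, 1.72 and 1.22, mean 1.55 ± 0.29, against 1.44 ± 0.34 with LPS. All 3 probes of the gene gave between 1.39 and 1.58 for LPS+IFNG at 4 h.

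Cd22 encodes a sialic acid-binding receptor that restrains B cells, and its values came from 1 probe of 2. That probe gave 0.95, 1.99 and 2.38 with LPS at 30 min, 0.55, 1.11 and 1.81 at 1 h, 1.84, 1.82 and 2.38 at 2 h, and 1.30, 1.20 and 2.15 at 4 h. Set 3 was the highest at each time. With the joint treatments the means at 1, 2 and 4 h were 1.09, 1.60 and 1.41 for LPS+IFNG and 1.48, 1.94 and 1.99 for LPS+2MA. For LPS+IFNG at 1 h, only 4 of 6 arrays had the sign of the mean. The second probe had values on 90 arrays and was not tested, and its means over the 16 groups lay between -0.25 and 0.27. The probes stood furthest apart with LPS+2MA at 4 h, by 2.22. Cd22 was the only member called at 30 min, and this rests on the first probe alone.

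Cd33, a sialic acid-binding receptor of myeloid cells, was called below untreated cells in all 5 treatments at 4 h. Its means were -0.72 ± 0.09 with LPS+IFNG, -0.49 ± 0.22 with LPS+2MA, -0.53 ± 0.15 with IFNG, -0.41 ± 0.19 with 2MA and -0.38 ± 0.11 with LPS. The 2MA call was lost under 6 of 11 alternatives, among them leaving out any 1 set. Cd300lg, of the CD300 family, was 0.65 ± 0.08 with LPS+2MA and 0.53 ± 0.34 with LPS at 4 h. Cd48, a GPI-anchored ligand of CD244, was -0.48 ± 0.23 with LPS+2MA at 4 h and -0.35 ± 0.44 with LPS at 2 h. Cd84 and Cd96, receptors of the SLAM and nectin-binding groups, had called means of at most 0.27. Cd200r1, the receptor for CD200 that restrains myeloid cells, was called once, with 0.84 ± 0.26 for LPS+IFNG at 4 h. Cd200r3 was called with LPS+2MA at 4 h at 0.24, but its 2 probes gave -0.13 and 0.61.

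**Figure D4:**
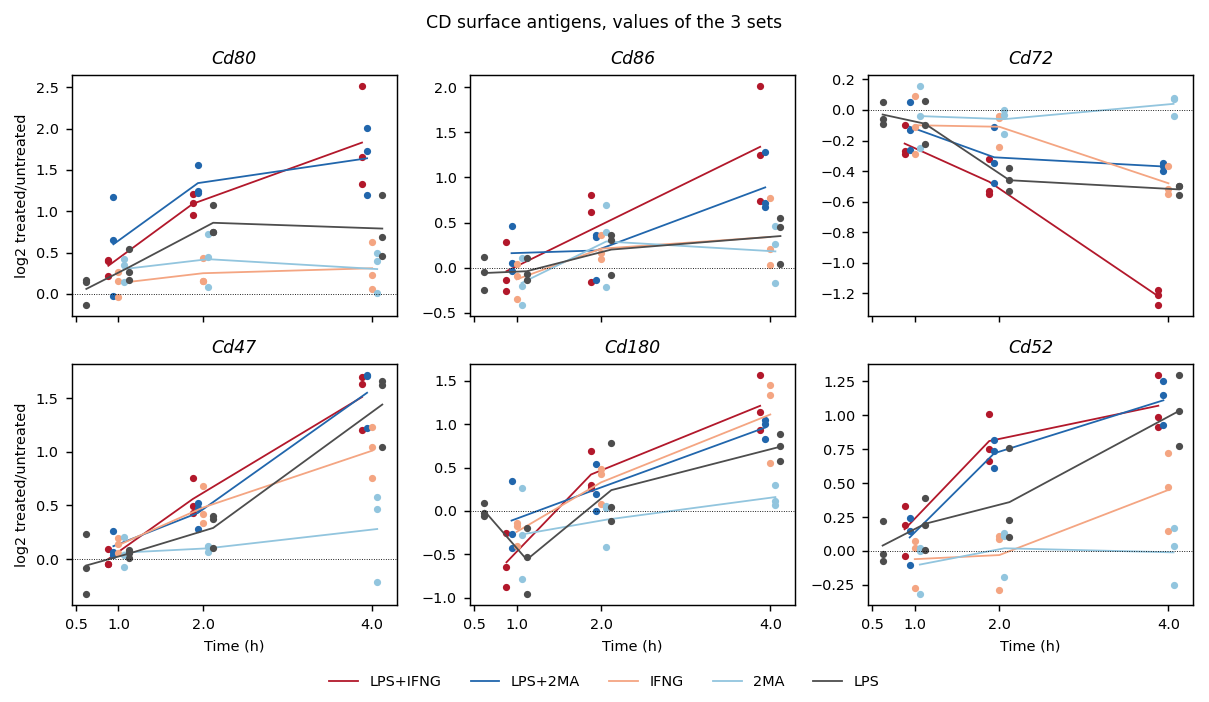
Log2 treated over untreated (y axis) against time in hours (x axis) for Cd80, Cd86, Cd72, Cd47, Cd180 and Cd52, with a point for each of the 3 sets, lines through the means and small sideways shifts to part the treatments. LPS+IFNG at 4 h is highest for Cd80 and Cd86 and lowest for Cd72, while for Cd47 and Cd52 it lies with LPS+2MA and LPS.

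Of 8 scavenger and lectin receptors, 5 were called in at least 1 response (62.5%, against 49.4% of all genes), 3 up (37.5%, against 24.2%) and 3 down (37.5%, against 28.1%), with Cd180 in both counts. Cd180 encodes a homologue of Toll-like receptor 4 that tempers LPS signals, and it was called both below and above untreated cells. LPS gave -0.06, 0.09 and -0.02 at 30 min, -0.96, -0.53 and -0.19 at 1 h, 0.05, -0.11 and 0.78 at 2 h, and 0.88, 0.75 and 0.58 at 4 h. Every set was below 0 at 1 h and above 0 at 4 h. LPS+IFNG likewise gave -0.88, -0.64 and -0.25 at 1 h and 1.14, 1.57 and 0.93 at 4 h, and IFNG alone gave 1.45, 1.34 and 0.55 at 4 h. The 1 h calls (limma adjusted p = 0.0233 for LPS+IFNG and 0.0439 for LPS) were lost without set 1 or set 2. LPS+2MA at 1 h was -0.11 ± 0.41 and not called, and at 4 h it was 0.96 ± 0.11. A second probe of Cd180, with values on 23 arrays, was not tested.

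Cd164, a sialomucin, rose at 4 h by 0.87 ± 0.23 with LPS+IFNG, 0.86 ± 0.15 with LPS+2MA, 0.51 ± 0.18 with IFNG and 0.71 ± 0.23 with LPS. All 4 calls held under the 11 alternatives. Cd36, the scavenger receptor for oxidised lipoproteins and fatty acids, was called with LPS+IFNG (0.61 ± 0.14), LPS+2MA (0.65 ± 0.03), IFNG (0.70 ± 0.18, n = 2) and 2MA (0.56 ± 0.23) at 4 h. With LPS alone it was 0.20 and not called. Its difference between LPS+IFNG and LPS, 0.41 (95% interval 0.02 to 0.80, limma adjusted p = 0.393), was not called, nor was that between LPS+2MA and LPS. Cd93 fell with LPS+IFNG (-0.47 ± 0.13) and IFNG (-0.36 ± 0.09) at 4 h. Cd302, a C-type lectin receptor, was -0.38 ± 0.08 with LPS+2MA at 4 h, against 0.08 ± 0.19 with LPS. That difference, -0.47 (SE 0.13, 95% interval -0.73 to -0.20), had a limma adjusted p of 0.142, and 0.0244 with sets paired by number.

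All 6 tested tetraspanins were called in at least 1 response, against 49.4% of all genes, 3 up (50%, against 24.2%) and 3 down (50%, against 28.1%). Of the 3 down, Cd37 has a sign that depends on the probe. Cd9, Cd63 and Cd82 were above and Cd37, Cd81 and Cd151 below untreated cells. Cd9 was the member with called responses to 2MA alone at 2 times, 0.48 ± 0.21 at 2 h and 0.57 ± 0.45 at 4 h. In sets 1, 2 and 3, 2MA gave 0.70, 0.29 and 0.45 at 2 h and 1.05, 0.14 and 0.53 at 4 h. Without set 1 the means were 0.37 and 0.34, and neither was called. LPS+2MA gave 0.68 ± 0.11 at 2 h and 0.76 ± 0.10 at 4 h, and LPS gave 0.49 ± 0.23 at 4 h. Cd82 was 0.42 ± 0.35 with LPS+IFNG, 0.53 ± 0.28 with LPS+2MA and 0.74 ± 0.24 with LPS at 4 h. Cd63, of lysosomes and secreted vesicles, was 0.43 ± 0.04, 0.40 ± 0.07 and 0.34 ± 0.12 in those groups. Cd151, which joins laminin-binding integrins, was -0.50 ± 0.17 with LPS+2MA and -0.67 ± 0.17 with LPS at 4 h. Cd81 was -0.53 ± 0.38 with LPS+IFNG and -0.44 ± 0.36 with LPS at 4 h. Cd37 was called with LPS+IFNG at 3 times and LPS+2MA at 2 h, but its 2 probes gave 0.14 and -1.08 for LPS+IFNG at 4 h.

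Cd52, a short GPI-anchored glycopeptide, was the largest change among the 6 tested genes of the adhesion and GPI-anchored list. Of these 6, 3 rose in at least 1 response (50%, against 24.2% of all genes) and 0 fell (against 28.1%). At 4 h, LPS+IFNG gave 0.91, 1.30 and 0.99, LPS+2MA gave 1.15, 1.25 and 0.93, IFNG gave 0.47, 0.72 and 0.15, and LPS gave 1.03, 1.30 and 0.77. The joint sets overlapped those of LPS. At 2 h, LPS+IFNG gave 0.75, 1.01 and 0.66, and LPS gave 0.10, 0.76 and 0.23, so the groups overlapped by 1 set. Their difference was 0.44 (SE 0.17, 95% interval 0.10 to 0.78, limma adjusted p = 0.217), and with sets paired by number its adjusted p was 0.00588. Cd59a, an inhibitor of complement lysis, was 0.41 ± 0.24 with LPS+IFNG, 0.48 ± 0.10 with LPS+2MA and 0.32 ± 0.10 with LPS at 4 h. Cd99 was called with LPS+2MA at 2 h at 0.33 ± 0.03.

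Of 11 lymphocyte receptor and coreceptor genes, Cd3e, Cd4, Cd6 and Cd8b1 were called (36.4%, against 49.4% of all genes), with means between -0.23 and 0.49. Cd4 had 0.49 ± 0.08 with LPS+IFNG, 0.37 ± 0.09 with LPS+2MA and 0.37 ± 0.07 with LPS at 1 h. Its tested probes gave 0.93 and 0.05 for LPS+IFNG at 1 h, so the call rests on 1 of them. Cd1d1 and Cd1d2, which present lipids to T cells, were not called. The intracellular adaptor Cd2ap was called with LPS+IFNG (0.27 ± 0.19), LPS+2MA (0.40 ± 0.20) and IFNG (0.43 ± 0.06) at 4 h. Cd2bp2, a splicing protein, lay between 0.40 and 0.53 in 5 groups that held LPS, 2 of them with 2 sets.

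**Figure D5:**
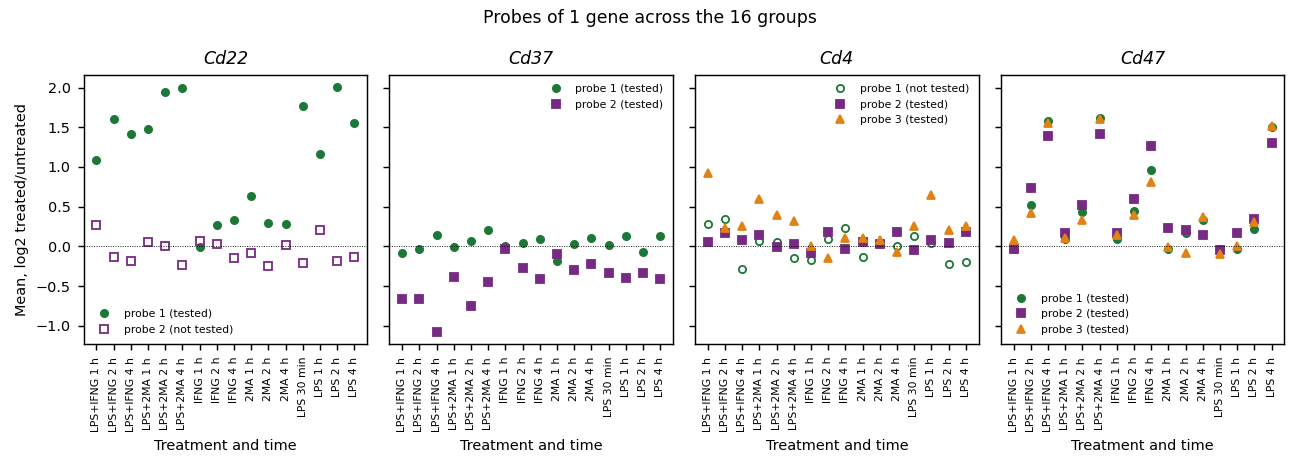
Mean log2 response (y axis) of each probe of Cd22, Cd37, Cd4 and Cd47 in each treatment and time (x axis), with filled marks for probes that were tested and open marks for probes with too few values. The 3 probes of Cd47 lie together, while for Cd22, Cd37 and Cd4 1 probe moves and another stays near 0.

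Cd209g, Cd24a, Cd34, Cd44 and Cd53 lacked values in too many sets to be tested. Cd44, the hyaluronan receptor, had values on 72 arrays. It gave 1.52 and 1.47 with LPS+IFNG at 4 h in the 2 sets measured, 1.79 and 2.01 with LPS+2MA in 2 sets, and 1.24 with LPS in 1 set. With so few sets these are values without a test.

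LPS+IFNG differed from LPS in 5 of 82 members at 4 h (6.10%, against 4.15% of all genes): Itgal, Cd80, Cd86 and Itgb2 above, and Cd72 below. Leaving out set 1, or set 3, left 2. With sets paired by number it was 8, adding Itga7 (adjusted p = 0.0154), Cd33 (0.0186) and Cd82 (0.0253), all lower with LPS+IFNG. At 2 h Itgav alone differed (1.22%, against 2.74%), and with paired sets Cd52 and Itgb4 (adjusted p = 0.029) joined it. Itgb4 had only 2 LPS+IFNG sets at 2 h, with -0.24 in set 2 and 0.96 in set 3. LPS gave -0.20 and -0.03 in those sets, so set 3 alone stood apart. At 1 h limma called 0 members, 0 also at an unadjusted p under 0.05 (against 1.01%). For LPS+2MA against LPS, limma called 0 members at 1, 2 and 4 h (against 0.0776%, 0.0949% and 0.354%), with 1, 4 and 6 at an unadjusted p under 0.05. With paired sets, Cd80 and Cd302 passed at 4 h. The joint treatments and LPS were each compared with untreated RNA of the same time, and the labels do not say whether it was shared. Both differences use the same LPS sets.

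Against the sum of the single responses, Cd47 alone departed with LPS+IFNG at 4 h (1.22%, against 2.71% of all genes), with 9 members at an unadjusted p under 0.05. With paired sets Cd82 (-0.50, adjusted p = 0.00443) and Cd52 (adjusted p = 0.0494) also passed. Limma called 0 members for LPS+IFNG at 1 and 2 h (against 0.0776% and 0.371%), with 0 and 5 at an unadjusted p under 0.05. For LPS+2MA it called 0 at 1, 2 and 4 h (against 0.0173%, 0.0173% and 0.0604%), with 2, 0 and 2 at an unadjusted p under 0.05. For most members the joint response was thus not told apart from the sum on the log2 scale, which does not show that it equals the sum. Over the LPS times, 13 members differed by the F test (15.9%, against 16.7% of all genes), a count of 4 without set 1 and 8 without set 2.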

How the data were processed

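The deposited values are log2 ratios of 1 array's channels; the scale was read from the values. Channel roles, doses and times came from the labels. For what the authors did before (image analysis, background correction, normalisation), the steps are not given in the sources used here. Next, the sign of arrays that carried treated RNA in Cy3 was turned. A value of exactly 0 was read as missing, and a set value needed both dye orientations. A probe was tested where every group had at least 2 of 3 sets, and tested probes of 1 gene were averaged, so a gene can rest on part of its probes. Probes were assigned to genes by the platform annotation of 2016. The symbols used came from RefSeq where the gene identifier matched, which it did for all 87 members. Per-sample columns left unused number 0.

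A linear model of 16 group means was fitted to 48 set values of all genes with limma 3.58.1 in R 4.3.3 (with version 1.17.8 of data.table) and empirical Bayes moderation (32 residual and 5.89 prior degrees of freedom). Tests were two-sided. Plots used matplotlib 3.10.9 in Python 3.11.15. The fit of responses was tested on simulated data with independent sets and changes in the LPS+IFNG group at 4 h only. That test does not cover differences between groups or deviations from the sum.

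Same-numbered sets of the joint and LPS groups deviated together across genes in every pair (correlations above 0.1, lowest 0.119), so paired values stand beside a result where they change its call. For sums this held with LPS+IFNG at 1 and 4 h and LPS+2MA at 2 and 4 h. The 11 alternatives cover zeros, sets, filters, probes, centring, dye and the spread.

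Set values were given for members called with a mean of at least 1 or at most -1, or called in a difference or deviation, with further values for Cd9, and means for the other called members and the integrins. Of the pathway lists, called genes among the 5 largest means could be named. The members and lists were chosen with earlier results of these data known. Cd9's set values were added after they were seen.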

Additional observations from a re-analysis of the deposited data

Results flagged for a closer look

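The LPS response was measured at 30 min, 1, 2 and 4 h, and 13 of 82 members differed between these times by limma's F test, adjusted over all genes. Cd47 (adjusted p = 1.05e-08), Cd52 (8.28e-05), Cd164 (9.3e-05) and Cd82 (0.0077) were highest at 4 h. Itgal (0.00114) and Cd63 (0.0492) were highest at 4 h as well. Itgav (0.000105) and Cd80 (0.0339) were highest at 2 h, with means of 1.45 and 0.86. Itga5 (0.0164) was highest at 1 h, with 1.13. Cd180 (0.000863) and Itgb1bp2 (0.00274) lay below 0 at 1 h, with -0.56 and -0.41, and above it at 4 h, with 0.74 and 0.48. Cd72 (0.000398) and Cd81 (0.0239) were lowest at 4 h, with -0.52 and -0.44. The count was 4 without set 1, 8 without set 2 and 11 without set 3.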

How the results depend on the processing

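Of 156 calls of a member in a comparison, 86 held under all 11 alternatives. Under at least 1 alternative, 69 were lost and 3 turned sign, and a call can be in both of these counts. Leaving out the set alternatives, 107 held. Calls were lost most often without set 1 (101 of 156 held), with groups compared alone (113) and without set 2 or set 3 (120 each). Keeping zeros and the replicate block lost none. With 1 probe per gene, Cd37 turned to 0.14 with LPS+IFNG at 4 h and 0.07 with LPS+2MA at 2 h, and Cd200r3 to -0.13 with LPS+2MA at 4 h, since another probe was used.

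Counts of members called moved as follows, and the cause was not tested. Leaving out 1 set gave ranges of 3 to 4 (LPS 1 h), 14 to 26 (LPS 4 h), 0 to 1 (IFNG 2 h), 8 to 11 (IFNG 4 h), 0 to 2 (2MA 1 h and 2 h), 0 to 4 (2MA 4 h), 3 to 4 (LPS+IFNG 1 h), 8 to 19 (LPS+IFNG 2 h) and 7 to 11 (LPS+2MA 2 h). Further ranges were 8 to 9 (LPS 2 h), 21 to 32 (LPS+IFNG 4 h), 3 to 5 (LPS+2MA 1 h) and 23 to 28 (LPS+2MA 4 h). For LPS+IFNG minus LPS the ranges were 0 to 1 at 2 h and 2 to 4 at 4 h, for the deviation of LPS+IFNG at 4 h 0 to 1, and for the LPS times 4 to 11.

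With the replicate block, the paired analysis, the counts were 8, 19 and 37 for LPS at 1, 2 and 4 h, 3 for IFNG at 2 h, and 2, 2 and 10 for 2MA at 1, 2 and 4 h. They were 10 and 24 for LPS+IFNG at 1 and 2 h and 22 for LPS+2MA at 2 h. For responses against 0 this block takes out variation shared by a set, so those counts are not a paired comparison. The block gave 3 and 8 differences of LPS+IFNG from LPS at 2 and 4 h, 2 of LPS+2MA at 4 h, deviations of 1 and 3 for LPS+IFNG at 2 and 4 h, and 23 for the LPS times. The LPS times and the sum at 2 h share only set numbers, since not every pair of sets correlated. It changed no other count of differences or deviations.

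With all arrays and a dye effect the counts were 16 (LPS 2 h), 2 (IFNG 2 h), 3 (2MA 1 h), 2 and 3 for the differences of LPS+IFNG at 2 h and LPS+2MA at 4 h, and 1 for the deviation of LPS+IFNG at 2 h. With groups compared alone, where 3 sets give their own spread, they were 2 (IFNG 2 h), 1, 0 and 0 (2MA 1, 2 and 4 h), 7 (LPS+IFNG 2 h), 2 and 6 (LPS+2MA 1 and 2 h). The differences of LPS+IFNG numbered 0 and 2 at 2 and 4 h, and the deviation at 4 h 0. With 1 probe per gene, IFNG at 2 h had 2.

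With 3 sets a group, a change near the median standard error of 0.113 could not be told from 0. Missing values took out 5 members, and ratios carry no level.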
